A study of Mus musculus with 14 samples.

Results

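Control mouse bone marrow gave 5 arrays on which multipotent progenitors (MPPs, sorted as lineage-negative, c-Kit+, Sca-1+ and CD34+) were set against myeloid progenitors (lineage-negative, c-Kit+, Sca-1-). The labels put 2 arrays in the MPP group and 3 in the myeloid progenitor group, out of 14 arrays in the series, and these 5 were taken by their labels alone. Of 12393 annotated genes 8608 were bright enough to test. Of these, 732 were above that limit on fewer than 2 of the 5 arrays and were tested because of other arrays of the series.

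The study deleted Dnmt1, which encodes the maintenance DNA methyltransferase, from blood-forming cells and measured RNA of sorted populations on Affymetrix arrays. Control mice were Dnmt1fl/fl without the Mx-Cre transgene, so their floxed alleles stayed intact. Knockout mice were Dnmt1fl/fl with Mx-Cre, whose promoter answers interferon. Mice of either genotype had a C57BL/6 background, were 8 to 12 weeks old and received 7 injections of poly(I)poly(C), a double-stranded RNA mimic that raises interferon, at 25 ug/kg. Marrow was collected 4 days after the last injection, so the control cells described here are interferon-exposed and not steady-state cells. Each array held the pooled cells of 4 to 6 mice of 1 genotype, and same-numbered control and knockout samples were littermates. Differences are therefore between pools of mice.

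Multipotent progenitors have lost long-term self-renewal but can still give rise to all blood lineages. Loss of surface Sca-1 with c-Kit retained marks the myeloid progenitor compartment, a mixture of common myeloid, granulocyte-monocyte and megakaryocyte-erythroid progenitors. Along this step, stem cell transcription factors and low-level lymphoid gene expression are known to fade while granule protein genes and the erythroid programme come on. Sca-1 itself is known to be induced by interferon, and whether the injections moved cells between the gates was not tested.

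The arrays did not separate cleanly by population, and this bears on every result. Over all probe sets except the 64 control probe sets, MPP control array 2 correlated with myeloid progenitor control array 3 at r = 0.987. With its fellow MPP control array 1 it correlated at r = 0.962. MPP control array 1 stood farthest off, at r of 0.939 to 0.943 with the 3 myeloid progenitor arrays. The level of the interferon response list (44 genes tested, centred on the 14 arrays) was 0.86 on MPP array 2 and 0.68 on myeloid progenitor array 3, against -0.23 on MPP array 1 and -0.65 and -0.76 on myeloid progenitor arrays 1 and 2. The knockout and stem cell arrays divided in the same way, with 6 of 14 arrays high, and no label names the division. Immediate early genes, which respond to cell handling as well as to growth signals, were at 1.35 on MPP array 1 and -0.60 on MPP array 2 relative to the mean of the 5 arrays. The ratio of 3′ to 5′ Gapdh signal, a measure of RNA integrity and amplification, was 2.86 and 2.44 on the MPP arrays and 5.27, 4.30 and 2.25 on the myeloid progenitor arrays. The same ratio for Actb did not divide them, at 1.04 and 1.10 against 1.18, 0.92 and 1.13. For the genes that passed, values without each array, within the arrays of like interferon list level and with that level as a covariate are given below. The part of RNA integrity and of the immediate early genes in the results was not tested. Of 141 genes named by rule, 65 had a difference that moved by over 1.5 times without MPP array 1 and 44 without MPP array 2, so single values rest heavily on these arrays.

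**Figure D1:**
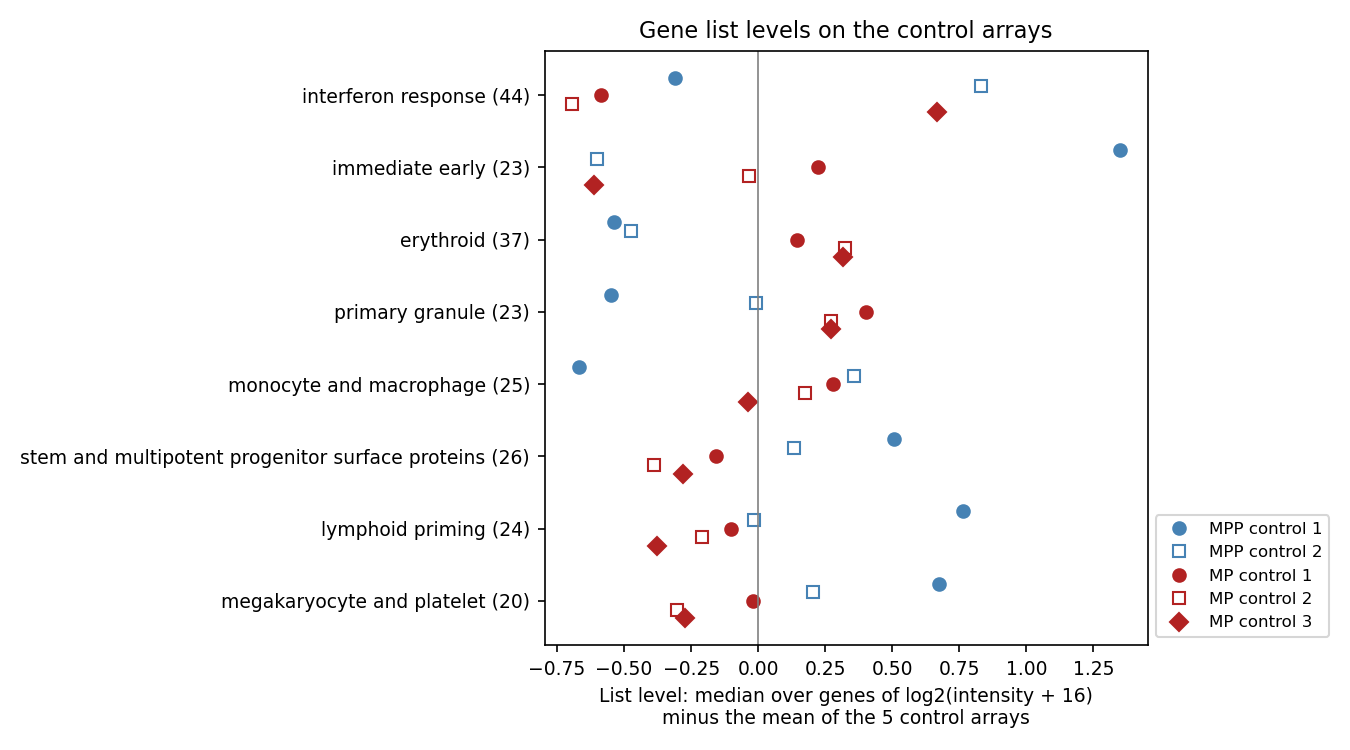
Level of 8 gene lists on each of the 5 control arrays, as the median over the list's genes of log2(intensity + 16) minus the mean of the 5 arrays, with the number of genes tested in brackets. The interferon list separates MPP array 2 (0.83) and myeloid progenitor array 3 (0.67) from the other 3 arrays, while the erythroid list separates the MPP arrays (-0.54 and -0.47) from the myeloid progenitor arrays (0.15 to 0.32).

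Markers of the sorted cells went with their labels in most cases. Flt3, the cytokine receptor that marks most MPPs, read 814 and 399 units of intensity on the MPP arrays and 138, 53.2 and 28.2 on the myeloid progenitor arrays. Cd34, which the MPP gate requires and the myeloid progenitor gate does not use, read 1021 and 748 against 451, 352 and 295. Kit, required by both gates, read 883 and 449 against 439, 457 and 349 and overlapped. Ly6a, which encodes Sca-1, was not analysed here. Summed over 9 MPP markers, intensity was 6425 and 3795 on the MPP arrays and 2444, 1810 and 1649 on the myeloid progenitor arrays. Over 12 myeloid progenitor markers the sums were 7634 and 13797 against 30469, 16281 and 20654, of which Ctsg alone made up 15001 on myeloid progenitor array 1. Markers of mature granulocytes were not absent: 7 of them summed to 2327 and 3571 against 5050, 3477 and 11761, so the populations overlapped. The 5 B cell markers summed to 218 and 181 against 251, 182 and 203, and the 4 T and NK cell markers to 48.4 and 58.6 against 37.4, 22.7 and 38.1.

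In the limma fit over all genes, 7 of 8608 genes (0.0813%) differed between control myeloid progenitors and control MPPs at an adjusted p under 0.05. Of them 5 (0.0581%) were higher and 2 (0.0232%) lower in myeloid progenitors. The 5 that rose were Car1, Ermap and Pklr, which are genes of red cells, together with Mt2, which encodes a metal-binding metallothionein, and Tlcd4. They rose relative to MPPs only, since control stem cell arrays 1 and 2 also lay above both MPP arrays in each of them. Those stem cell arrays read 700 and 2449 for Car1, 510 and 2204 for Ermap and 81.18 and 379 for Pklr. For Mt2 they read 499 and 914, and for Tlcd4 63.1 and 88.45. The 2 that fell were Cd74, the invariant chain of MHC class II molecules, and Igkv8-30, an immunoglobulin kappa variable segment. At an unadjusted p under 0.05 there were 768 genes (8.92%), 408 higher (4.74%) and 360 lower (4.18%). On the normalised log2 scale, the groups did not overlap in 1155 genes that were higher (13.4%) and 936 that were lower (10.9%). Over all 8608 genes, 4522 differences were positive and 4086 negative. These counts and shares are the background for the gene lists below. All differences below are myeloid progenitors minus MPPs as log2(intensity + 16). The value after ± is the standard error (SE) that limma gave for groups of 2 and 3 arrays. Its variance was pooled over all groups of the fit, knockout and stem cell arrays included, and drawn towards a mean-variance trend. The SE is therefore not the spread of the control arrays compared, which can be wider or narrower. This scale understates changes of dim genes, and in sorted bulk cells fewer cells of a type cannot be told apart from less RNA per cell.

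Car1 (Entrez Gene 12346) encodes carbonic anhydrase 1, an enzyme of early erythroid cells. It read 41.1 and 146 on the MPP arrays and 1242, 993 and 1528 on the myeloid progenitor arrays. Every myeloid progenitor array was thus far above both MPP arrays, and the gap of 3.71 ± 0.46, a 13.1-fold rise, passed the test (adjusted p = 0.00768). Ermap (Entrez Gene 27028) encodes an erythroblast membrane protein of the immunoglobulin superfamily. Its intensities were 69.0 and 176 against 1092, 1308 and 1654, again without overlap, a rise of 3.38 ± 0.45 (adjusted p = 0.0100). Pklr (Entrez Gene 18770) encodes the pyruvate kinase of liver and red cells. It was near the floor of the arrays in MPPs, at 8.67 and 15, and read 134, 184 and 236 in myeloid progenitors, a rise of 2.86 ± 0.43 (adjusted p = 0.0257). A further pair of Pklr probe sets gave 1.89 and 0.96.

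Because Ermap and Pklr rose together, their upstream sequences are shown, taken from RefSeq (GRCm38.p6), with 250 bases ending at the base before the transcription start. The capitals mark matches on either strand to AGATAA or TGATAA, the core bound by GATA factors, and to CACCC, the core bound by Krüppel-like factors such as Klf1. Ermap is at chr4:119189996-119190245 on the minus strand, and the Pklr window at chr3:89135892-89136141 on the plus strand precedes the upstream of its listed starts.
Ermap: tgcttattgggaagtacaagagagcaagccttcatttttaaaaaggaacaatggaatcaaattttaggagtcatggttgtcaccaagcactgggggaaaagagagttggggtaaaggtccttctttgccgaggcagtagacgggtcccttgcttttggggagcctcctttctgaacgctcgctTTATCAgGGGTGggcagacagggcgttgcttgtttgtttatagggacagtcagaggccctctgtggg
Pklr: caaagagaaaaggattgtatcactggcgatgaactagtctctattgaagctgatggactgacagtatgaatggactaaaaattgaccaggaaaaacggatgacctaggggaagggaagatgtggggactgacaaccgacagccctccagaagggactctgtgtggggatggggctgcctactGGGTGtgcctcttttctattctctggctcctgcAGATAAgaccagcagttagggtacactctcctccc
In Ermap a GATA core begins 67 bases and a CACCC core 60 bases before the start, both read from the opposite strand and not overlapping. In Pklr a CACCC core on the opposite strand begins 68 bases and a GATA core 35 bases before the start. Of 32851 promoter windows of this length in the RefSeq table, 16.6% held the GATA core and 52% the CACCC core, so neither match is rare by itself. The window before the downstream Pklr start, at chr3:89136373-89136622, held none of these letters. The matches are descriptions of sequence, and the arrays do not tell from which start Pklr was transcribed.

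Mt2 (Entrez Gene 17750) had the smallest p of all genes. The MPP arrays read 39.5 and 48.3, close to each other, and the myeloid progenitor arrays 251, 495 and 546. Its rise was 2.85 ± 0.33, or 7.23-fold (adjusted p = 0.00761). Mt1, the neighbouring metallothionein gene, read 49.6 and 302 against 549, 590 and 796, a difference of 2.16 ± 0.55 that did not pass (adjusted p = 0.144). Metallothionein promoters carry metal response elements, and those of Mt2 are shown because Mt2 led the comparison. Capitals mark the core TGCACNC or TGCGCNC on either strand in the 250 bases before the start (chr8:94172368-94172617, plus strand, GRCm38.p6).
Mt2: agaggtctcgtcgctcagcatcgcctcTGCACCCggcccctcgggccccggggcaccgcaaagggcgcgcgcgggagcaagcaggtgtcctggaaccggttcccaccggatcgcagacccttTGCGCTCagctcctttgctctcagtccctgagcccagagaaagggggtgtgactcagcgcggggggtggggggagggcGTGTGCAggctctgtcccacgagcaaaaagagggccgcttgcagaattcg
This window held 3 such cores, beginning 223, 128 and 50 bases before the start, and 21.4% of the 32851 windows held at least 1. The first of the 3 overlaps a CACCC core.

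Tlcd4 (Entrez Gene 99887) read 1.90 and 5.34 on the MPP arrays, at the floor, and 52.0, 120 and 95.0 on the myeloid progenitor arrays, a rise of 2.34 ± 0.35 (adjusted p = 0.0257). Cd74 (Entrez Gene 16149) read 312 and 203 in MPPs and 36.9, 32.4 and 13.4 in myeloid progenitors. It was clearly expressed on the MPP arrays and dim on all myeloid progenitor arrays, and fell by 2.60 ± 0.42 (adjusted p = 0.0328). Igkv8-30 (Entrez Gene 384419) read 3316 and 446 against 39.0, 32.6 and 12.1 and fell by 4.77 ± 0.75 (adjusted p = 0.0307). Its probe set is of the type that may bind related transcripts, and the Igk probe set gave a like picture, at 4081 and 333 against 28.7, 48.2 and 11.0. Most of the kappa signal thus came from MPP array 1. Of 23 B cell genes tested, 2 were lower at an unadjusted p under 0.05 and 0 higher, with a median of 0.05. Over all genes 4.18% were lower at that p, so this count says little of the list. The 2 lower B cell genes were Ighm, the heavy chain of IgM, and Cd72, a B cell surface protein. Ighm was also highest on MPP array 1, at 1268 and 261 on the MPP arrays and 213, 312 and 131 on the myeloid progenitor arrays, and so was Cd72, at 277 and 133 against 102, 63.1 and 54.7. Cd79a, a chain of the B cell receptor complex, was dim throughout, at 19.0 and 4.14 against 15.2, 9.60 and 7.20. Jchain, the joining chain of secreted antibodies, which was chosen after its values were seen, read 281 and 22.9 against 8.03, 11.5 and 8.63. The part of B cells and antibody-secreting cells in the kappa difference was not tested.

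**Figure D2:**
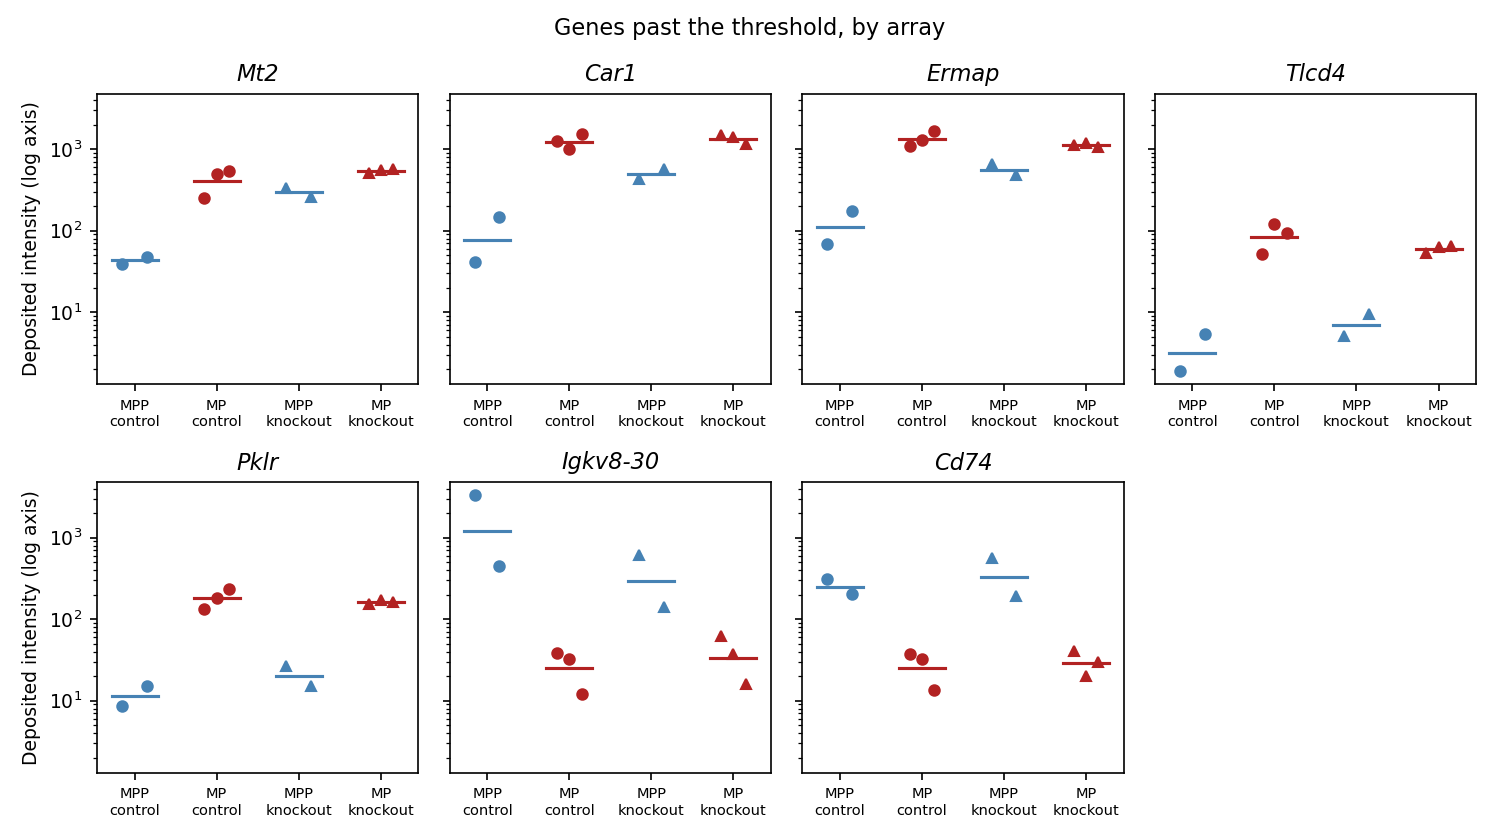
Deposited intensity (log axis) of the 7 genes past the threshold on each MPP and myeloid progenitor (MP) array, with circles for control and triangles for knockout arrays and lines at the geometric mean of each group. In controls all 3 myeloid progenitor arrays lie above both MPP arrays for Mt2, Car1, Ermap, Tlcd4 and Pklr and below them for Igkv8-30 and Cd74, while knockout MPPs lie between the control groups for Car1 (436 and 565) and Ermap (657 and 478) and, for Mt2 (335 and 263), just above the lowest control myeloid progenitor array.

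The calls rested on few arrays. Without MPP array 1 or without myeloid progenitor array 3, 0 genes passed; the adjusted p of the 7 genes was then 0.261 to 0.892 and 0.0593 to 0.396. Without myeloid progenitor array 2, 2 genes (Mt2 and Car1) passed, and without MPP array 2 the number was 184. It was 3 without knockout myeloid progenitor array 1 or 3, which enter the estimate of the spread. Without control myeloid progenitor array 1, 6 genes passed, with 4 of the 7 among them. Pklr and both lower genes, Igkv8-30 and Cd74, then did not pass in limma (adjusted p = 0.169, 0.0830 and 0.0725). Pklr also did not pass with a pseudocount of 1 or with littermate pairs as a random block. Over the 23 alternatives the differences of all 7 kept their sign, from 2.94 to 4.49 for Car1, 2.80 to 3.97 for Ermap, 2.14 to 3.24 for Mt2, 1.69 to 3.10 for Pklr, 1.14 to 4.26 for Tlcd4, -6.14 to -3.40 for Igkv8-30 and -3.16 to -1.76 for Cd74. The same difference taken only between the arrays of high interferon list level (myeloid progenitor 3 minus MPP 2) was 3.17 for Car1, 3.04 for Ermap, 3.09 for Mt2, 2.25 for Tlcd4, 2.92 for Pklr, -3.96 for Igkv8-30 and -2.82 for Cd74. Between the arrays of low level (the mean of myeloid progenitors 1 and 2 minus MPP 1) it was 4.37, 3.85, 2.80, 2.47, 2.95, -5.86 and -2.62 in the same order. The control groups did not overlap in any of the 7 genes, so neither split could have changed a sign. The like signs are thus no test of the array division, and only the sizes are given. With the interferon list level of each array added to the fit as a covariate, a choice made after seeing the data, 114 genes passed (1.32%), 68 higher (0.79%) and 46 lower (0.534%), the 7 among them.

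No other gene passed, and the genes named from here on are given by their values. The next in order of p was H2-Aa, a chain of the MHC class II molecule, with an adjusted p of 0.0588. Among the genes higher in myeloid progenitors, Clec5a, a receptor of myeloid cells that signals through Dap12, read 4.50 and 29.8 on the MPP arrays and 81.8, 105 and 90.9 on the myeloid progenitor arrays. Slc38a5, an amino acid transporter, read 1.19 and 12.0 against 80.8, 193 and 102, and F10, coagulation factor X, 26.4 and 52.3 against 111, 115 and 186. For these 3 genes the groups did not overlap, and the differences were 1.86 ± 0.33, 2.57 ± 0.48 and 1.54 ± 0.30. Sema4a and Rflnb were at 1.71 ± 0.32 and 1.82 ± 0.34. On the lower side, Slc16a11, a monocarboxylate transporter family member, read 262 and 59.8 against 5.37, 5.45 and 3.78, at -2.74 ± 0.50. Tnfrsf18, the receptor GITR, read 531 and 297 against 76.9, 85.4 and 156, at -1.80 ± 0.33. Calcrl, the receptor of calcitonin-related peptides, was at -1.60 ± 0.30 and the lectin receptor Clec4n at -1.30 ± 0.25.

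Erythroid genes lay mostly on the higher side in myeloid progenitors. Of 50 genes listed 37 were tested, and at an unadjusted p under 0.05 there were 17 higher and 0 lower, where 4.74% of all genes were higher and 4.18% lower. Their median difference was 0.60, beside 0.02 over all genes, and it was 0.78 without MPP array 1 and 0.79 without MPP array 2. Klf1, the transcription factor that drives the erythroid programme, read 13.8 and 69.4 on the MPP arrays and 172, 174 and 315 on the myeloid progenitor arrays. Epor, the erythropoietin receptor, read 31.0 and 35.4 against 63.8, 160 and 165. Gata1, the factor that Klf1 depends on, read 73.0 and 94.7 against 147, 210 and 217. The myeloid progenitor arrays were above both MPP arrays in all 3 genes, with differences of 2.26 ± 0.58, 1.54 ± 0.42 and 1.06 ± 0.47. The list was not uniform, with 28 of the 37 genes positive and 9 negative. Rhag and Rhd, of the Rh complex of the red cell membrane, were at 1.18 ± 0.38 and 1.66 ± 0.47. Alas2, the erythroid enzyme that begins heme synthesis, read 53.8 and 27.9 against 34.4, 33.4 and 35.1, at -0.08 ± 0.46. Slc4a1, the anion exchanger of the red cell membrane, read 136 and 85.7 against 56.8, 58.6 and 80.7, at -0.59 ± 0.29. Alpha globin could not be read, since the probe sets of its near-identical copies disagreed, with Hba-a1 between 1.00 and 2.89 and Hba-a2 between 1530 and 3605 over the 5 arrays.

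Genes of heme synthesis and iron uptake were mixed. At an unadjusted p under 0.05, 8 of 27 tested were higher and 1 lower, where 4.74% of all genes were higher and 4.18% lower. The list median was 0.43, and 0.24 without MPP array 1. Alas1, the housekeeping form of the enzyme that begins heme synthesis, read 48.1 and 279 on the MPP arrays and 627, 664 and 738 on the myeloid progenitor arrays, at 2.33 ± 0.53. It was at 1.21 and 3.44 without MPP array 1 or 2, and its other probe set gave 1.86. Tfrc, the transferrin receptor through which dividing and erythroid cells take up iron, read 455 and 493 against 1023, 1028 and 756, at 0.92 ± 0.26. Blvrb, a biliverdin reductase abundant in red cells, was at 1.89 ± 0.50, and the porphyrin transporter Abcb6 at 1.23 ± 0.38.

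The primary granule list held genes for the proteases and peroxidase of promyelocytes, with others such as Alas1, Igsf6, Cst7 and Ms4a3. Some of its genes were already strong in MPPs. Of 23 tested, 21 had a positive difference, and at an unadjusted p under 0.05 there were 9 higher and 0 lower. Over all genes, 4522 of 8608 were positive and 4.74% were higher at that p. Mpo, the myeloperoxidase gene, read 3952 and 5854 on the MPP arrays and 6367, 5359 and 6618 on the myeloid progenitor arrays, a difference of 0.37 ± 0.46. Elane, the neutrophil elastase gene, read 171 and 1063 against 2731, 1870 and 2846, at 2.47 ± 0.60. MPP array 1 was the lowest in both genes. MPP array 2 lay within the myeloid progenitor range for Mpo and below it for Elane, whose difference was 1.18 without MPP array 1 and 3.75 without MPP array 2. Ctsg, cathepsin G, read 620 and 2785 against 15001, 2555 and 3551, with myeloid progenitor array 1 alone far above the rest. Prtn3, proteinase 3, was at 0.69 ± 0.33, and Ms4a3, a marker of granulocyte-monocyte progenitors, at 2.04 ± 0.57 (0.65 and 3.42 without MPP array 1 or 2). The list median was 0.45, with 0.30 and 0.70 without MPP array 1 or 2.

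The list of regulators of granulocyte and monocyte fate, which also held surface receptors such as Fcgr3 and Cd244a, went partly the same way. Of 35 tested, 10 were higher and 3 lower at an unadjusted p under 0.05, with a median of 0.27. At that p, 4.74% of all genes were higher and 4.18% lower. Cebpa, which directs entry into the granulocyte-monocyte lineage, read 318 and 462 on the MPP arrays and 765, 893 and 679 on the myeloid progenitor arrays, at 0.96 ± 0.36. Cebpd, a related factor, read 27.3 and 80.9 against 215, 392 and 169, at 2.06 ± 0.44. Fcgr3, a low-affinity Fc receptor that helps to define granulocyte-monocyte progenitors, read 101 and 419 against 964, 828 and 1175, at 2.10 ± 0.45. In these 3 genes the groups did not overlap, and Fcgr3 was at 1.17 and 3.04 without MPP array 1 or 2. Spi1, which encodes PU.1, read 129 and 110 against 88.5, 228 and 143 and overlapped, at 0.25 ± 0.41. Cd244a was on the other side at -1.62 ± 0.48, with 523 and 401 against 157, 115 and 145.

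Monocyte genes depended on which MPP array was read. At an unadjusted p under 0.05, 6 of 25 tested were higher and 0 lower. The median of 0.45 became -0.09 without MPP array 1 and 1.25 without MPP array 2. Csf1r, the receptor for macrophage colony-stimulating factor, read 59.6 and 448 on the MPP arrays and 948, 872 and 496 on the myeloid progenitor arrays, so MPP array 2 and myeloid progenitor array 3 were nearly level. Irf8, which favours monocyte and dendritic cell fate, read 155 and 576 against 1086, 1141 and 575 and overlapped. Mature granulocyte genes had a median of 0.72 over 17 tested, 15 of them positive, with 2 higher at an unadjusted p under 0.05. Myeloid progenitor array 3 was high in them, as in Camp, a granule peptide gene, with 206 and 224 against 312, 229 and 1451. Of 25 genes of mast cells, basophils and eosinophils 2 were higher and 2 lower at an unadjusted p under 0.05. At that p, 4.74% of all genes were higher and 4.18% lower. These small counts, and the 2 mature granulocyte genes, thus say little of their lists. Hdc, which makes histamine, read 16.8 and 206 against 513, 603 and 531, at 2.78 ± 0.67 (1.32 and 4.23 without MPP array 1 or 2), while Cpa3, a mast cell protease, read 204 and 188 against 240, 201 and 414, at 0.42 ± 0.38.

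Genes of stem cells and MPPs lay mostly on the lower side in myeloid progenitors. Of 29 stem cell transcription factor genes 24 had a negative difference, with 7 lower at an unadjusted p under 0.05 and 0 higher, and the median was -0.45. Over all genes, 4086 of 8608 were negative and 4.18% were lower at that p. Hlf, a leucine zipper factor of stem cells, read 1155 and 448 on the MPP arrays and 132, 48.3 and 98.7 on the myeloid progenitor arrays, at -2.84 ± 0.53, and its other probe set gave -2.99. Msi2, an RNA-binding regulator of stem cells kept in this list, read 1746 and 778 against 279, 550 and 402, at -1.55 ± 0.41. Meis1, a homeobox partner of Hox proteins, read 71.3 and 40.7 against 26.8, 7.99 and 14.4, at -1.10 ± 0.36. All 3 genes were without overlap. Gata2 overlapped, at 530 and 371 against 177, 207 and 474.

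Surface proteins of stem cells and MPPs followed. Of 26 tested, 22 were negative, with 10 lower at an unadjusted p under 0.05 and 0 higher, and a median of -0.53. Among all 8608 genes, 4086 were negative and 4.18% were lower at that p. Flt3 was at -2.88 ± 0.64 and Procr, the endothelial protein C receptor of stem cells, at -2.67 ± 0.62, with 749 and 251 against 53.6, 69.9 and 39.2 (-1.91 and -3.44 without MPP array 1 or 2). Vldlr, a lipoprotein receptor, read 598 and 159 against 38.4, 3.07 and 17.2, at -3.28 ± 0.60, and its further 3 probe sets gave -1.59 to -2.04. Thy1 read 115 and 92.1 against 23.8, 9.40 and 22.9, at -1.76 ± 0.39. For both lists the median was smaller without MPP array 1 (-0.19 for the factors and -0.35 for the surface proteins) than without MPP array 2 (-0.84 and -0.86).

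Lymphoid priming genes, which MPPs express at a low level before lymphoid commitment, were lower at an unadjusted p under 0.05 in 6 of 24 and higher in 0. At that p, 4.18% of all genes were lower and 4.74% higher. Dntt, the terminal transferase of early lymphoid cells, read 2124 and 753 on the MPP arrays and 551, 100 and 54.3 on the myeloid progenitor arrays, at -2.97 ± 0.85. Sox4, a factor of early B cell development, read 833 and 479 against 380, 206 and 203, at -1.31 ± 0.30. Its other probe sets gave -1.62 to 0.24, and on the one at 0.24 the groups overlapped, at 39.2 and 45.7 against 30.0, 105 and 33.6. Mef2c, which supports lymphoid fate, read 897 and 734 against 440, 339 and 309, at -1.20 ± 0.29. On the probe set used for each of the 3 the groups did not overlap. Il7r, the receptor of lymphoid progenitors, was dim and overlapped, at 92.5 and 24.9 against 68.8, 20.6 and 29.2, and its difference of -0.34 ± 0.63 became 0.37 without MPP array 1. The list median was -0.51, with -0.17 and -1.05 without MPP array 1 or 2.

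MHC class II genes moved with Cd74. H2-Aa read 266 and 153 on the MPP arrays and 46.7, 15.1 and 14.6 on the myeloid progenitor arrays, at -2.42 ± 0.42, and H2-Ab1, which encodes the partner chain, 667 and 324 against 209, 98.4 and 101, at -1.75 ± 0.43. Of 24 genes of MHC class II and dendritic cells, 7 were lower at an unadjusted p under 0.05, 1 of which passed the adjusted test (Cd74), and 3 were higher. At that unadjusted p, 4.18% of all genes were lower and 4.74% higher. Itgax, a dendritic cell integrin, read 73.8 and 61.4 against 51.9, 13.5 and 21.2, and the part of dendritic cells in these differences was not tested. GIMAP GTPases, small proteins known from lymphocyte survival, were negative in 5 of 5 tested, where 4086 of all 8608 genes were negative. Of the 5, 2 were lower at an unadjusted p under 0.05 (4.18% of all genes), Gimap6 and Gimap1. Gimap6 read 772 and 161 against 83.6, 24.2 and 33.2 and Gimap1 283 and 92.8 against 48.7, 14.4 and 33.2. Gimap4 and Gimap7 were at -0.48 ± 0.31 and -0.46 ± 0.26.

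Megakaryocyte and platelet genes were negative in 20 of 20 tested, with 7 lower at an unadjusted p under 0.05. Over all genes, 4086 of 8608 were negative and 4.18% were lower at that p. The list median was -0.67 (-0.35 and -0.98 without MPP array 1 or 2). Pf4, platelet factor 4, read 770 and 246 on the MPP arrays and 155, 47.2 and 23.5 on the myeloid progenitor arrays, at -2.56 ± 0.85. Cavin2 read 327 and 165 against 109, 34.2 and 7.27, at -2.18 ± 0.66. Itga2b, the platelet integrin by which megakaryocyte progenitors are often sorted, was dim throughout, at 26.2 and 28.4 against 21.3, 15.6 and 17.5. Thus megakaryocyte genes were highest on MPP array 1, and erythroid genes on the myeloid progenitor arrays. Among 29 genes of adhesion and niche retention 6 were lower at an unadjusted p under 0.05 and 0 higher, led by Esam, an endothelial adhesion molecule also found on stem cells, at 323 and 33.3 against 9.94, 5.18 and 1.61.

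**Figure D3:**
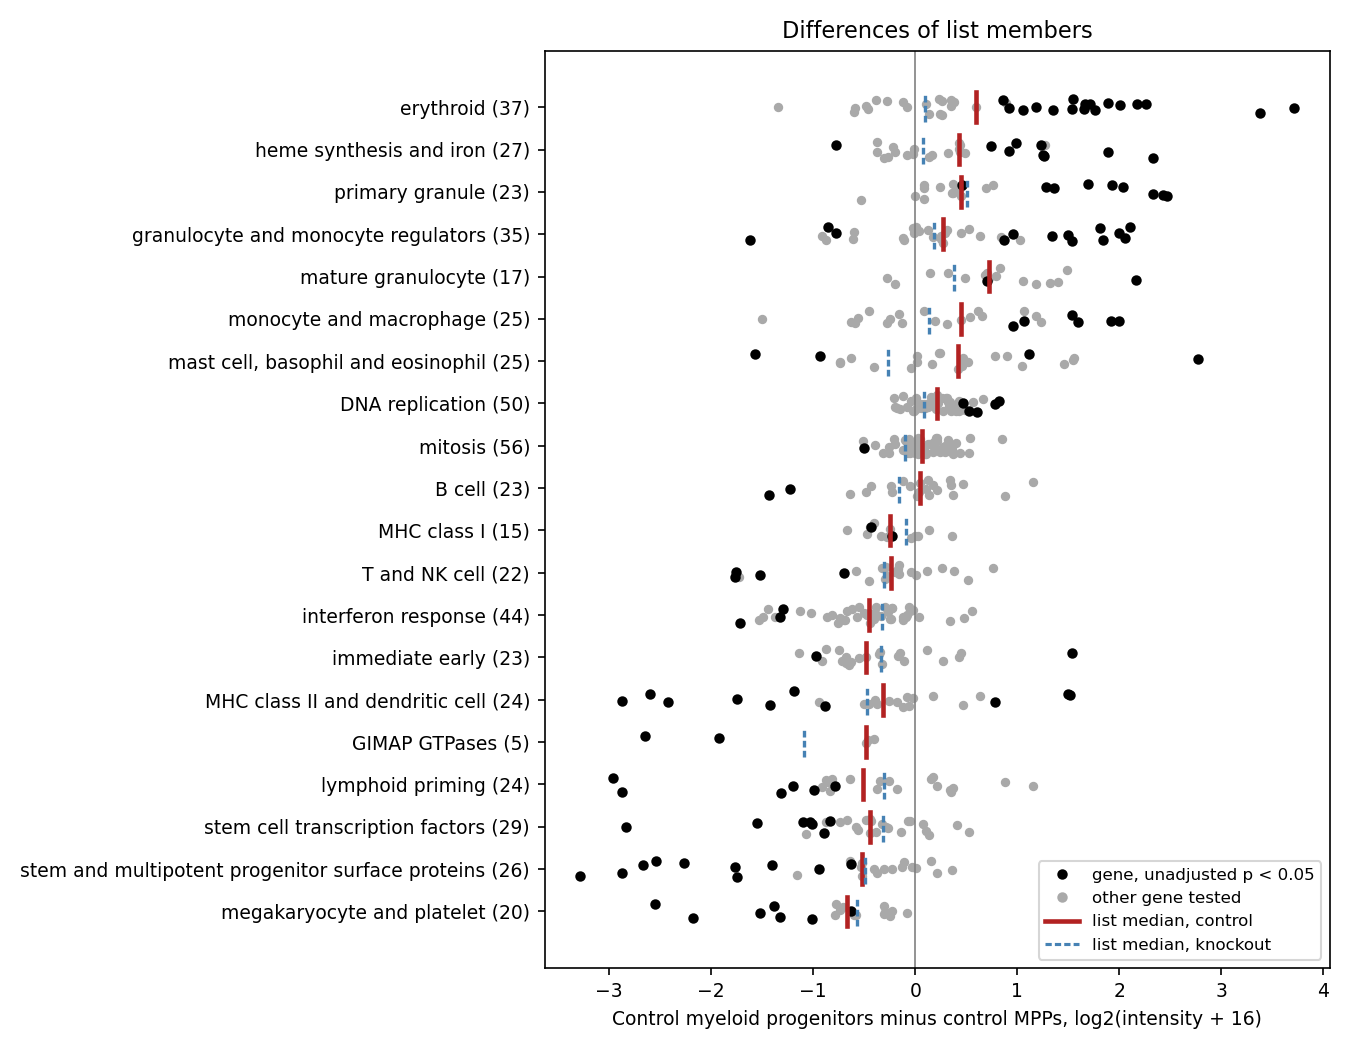
Difference between control myeloid progenitors and control MPPs for every tested gene of 20 lists, on the log2(intensity + 16) scale, with the number of genes tested in brackets. Black points have an unadjusted p under 0.05, red bars mark the control median and dashed blue bars the median of the same genes in knockout cells; erythroid genes reach 3.71 and all 20 megakaryocyte and platelet genes lie below 0.

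Cell cycle genes differed little. DNA replication genes had a positive difference in 41 of 50 and a median of 0.21, with 5 higher at an unadjusted p under 0.05 and 0 lower. Over all genes, 4522 of 8608 were positive and 4.74% were higher at that p. The DNA replication median was 0.05 without MPP array 1 and 0.35 without MPP array 2. Ccne1, cyclin E1, which starts S phase, read 42.0 and 76.5 on the MPP arrays and 92.7, 118 and 121 on the myeloid progenitor arrays, at 0.82 ± 0.29. Mitosis genes had a median of 0.07 over 56 tested, which became -0.12 without MPP array 1. Cdkn1a, the cell cycle inhibitor p21, read 114 and 143 against 47.8, 42.5 and 87.7, at -0.95 ± 0.29. Cytosolic ribosomal protein genes (-0.03 over 41), oxidative phosphorylation genes (0.06 over 70), glycolysis genes (0.03 over 19) and cholesterol synthesis genes (-0.06 over 19) had medians near that of all genes.

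Among genes of DNA methylation, Dnmt1 was alike in the populations, at 1518 and 1596 on the MPP arrays and 1328, 2156 and 1571 on the myeloid progenitor arrays, a difference of 0.06. Dnmt3b, a de novo methyltransferase, read 912 and 462 against 427, 384 and 295, at -0.85 ± 0.31. Dnmt3a, the other, read 1162 and 770 against 687, 653 and 683, at -0.53 ± 0.27. Of the 13 genes tested 2 were higher and 1 lower at an unadjusted p under 0.05. At that p, 4.74% of all genes were higher and 4.18% lower, so these small counts say little of the list.

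Interferon response and immediate early genes varied strongly between arrays of the same population. Between the arrays of high interferon list level (myeloid progenitor 3 minus MPP 2) the interferon list median was -0.15. Between those of low level (the mean of myeloid progenitors 1 and 2 minus MPP 1) it was -0.36. Over all genes these medians were 0.01 and 0.04. The interferon list was negative in 40 of 44 genes with a median of -0.45, but this became -0.998 without MPP array 1 and -0.01 without MPP array 2. Ifit3, an antiviral protein gene, read 23.1 and 97.4 on the MPP arrays and 5.86, 1.73 and 23.8 on the myeloid progenitor arrays. The immediate early list was at -0.48, and at 0.54 and -1.63 without MPP array 1 or 2. Klf6 read 1261 and 328 against 418, 360 and 271, and its difference of -0.91 ± 0.47 became 0.03 without MPP array 1.

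With the interferon list level in the fit, more members of the lists passed. Of the 37 erythroid genes 8 then passed as higher (0.79% of all genes), among them Klf1, Ces2g, Atp1b2 and Rhag beside Car1 and Ermap. Of the 23 genes of the primary granule list 4 passed, Alas1, Igsf6, Cst7 and Elane. Of these, Elane encodes a granule protease, and Alas1 is also in the heme list. Lower genes that passed (0.534% of all genes) were 3 of 29 stem cell factors (Msi2, Hlf and Erg), 5 of 26 surface proteins (Adgrg1, Thy1, Vldlr, Flt3 and Procr), 3 of 24 lymphoid priming genes (Dntt, Sox4 and Flt3) and 4 of 24 MHC class II and dendritic cell genes (Cd74, H2-Ab1, H2-Aa and Flt3). Isg20, itself a member of the interferon list, passed as higher with this covariate at 1.26, and was at 0.34 without it.

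The step from MPPs to myeloid progenitors was also measured in the knockout littermates, on 5 other arrays. These arrays were not independent of the control arrays in their deviations. Same-numbered littermate samples had a consensus correlation of 0.50 in limma, and the arrays of high interferon list level bore the same numbers in both genotypes (MPP 2 and myeloid progenitor 3). By limma 0 of 8608 genes passed there (0%), with 485 at an unadjusted p under 0.05 (5.63%), 256 of them higher (2.97%) and 229 lower (2.66%). The 7 genes that passed in controls had the same direction in 7 of 7, and 6 of them an unadjusted p under 0.05 in knockout cells. Of the 408 genes higher in controls at an unadjusted p under 0.05, 400 (98.0%) had the same direction and 161 reached the same p in knockout cells. Of the 360 lower genes 350 (97.2%) had the same direction and 111 reached that p, where 73.5% of all genes had the same direction. How much of this like direction came from the shared deviations was not tested. These genes were chosen by their control values, so the sizes are only set side by side, controls first. They were 2.85 and 0.85 for Mt2, 3.71 and 1.38 for Car1, 3.38 and 0.96 for Ermap, 2.34 and 1.74 for Tlcd4, 2.86 and 2.35 for Pklr, -4.77 and -2.58 for Igkv8-30 and -2.60 and -2.91 for Cd74.

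**Figure D4:**
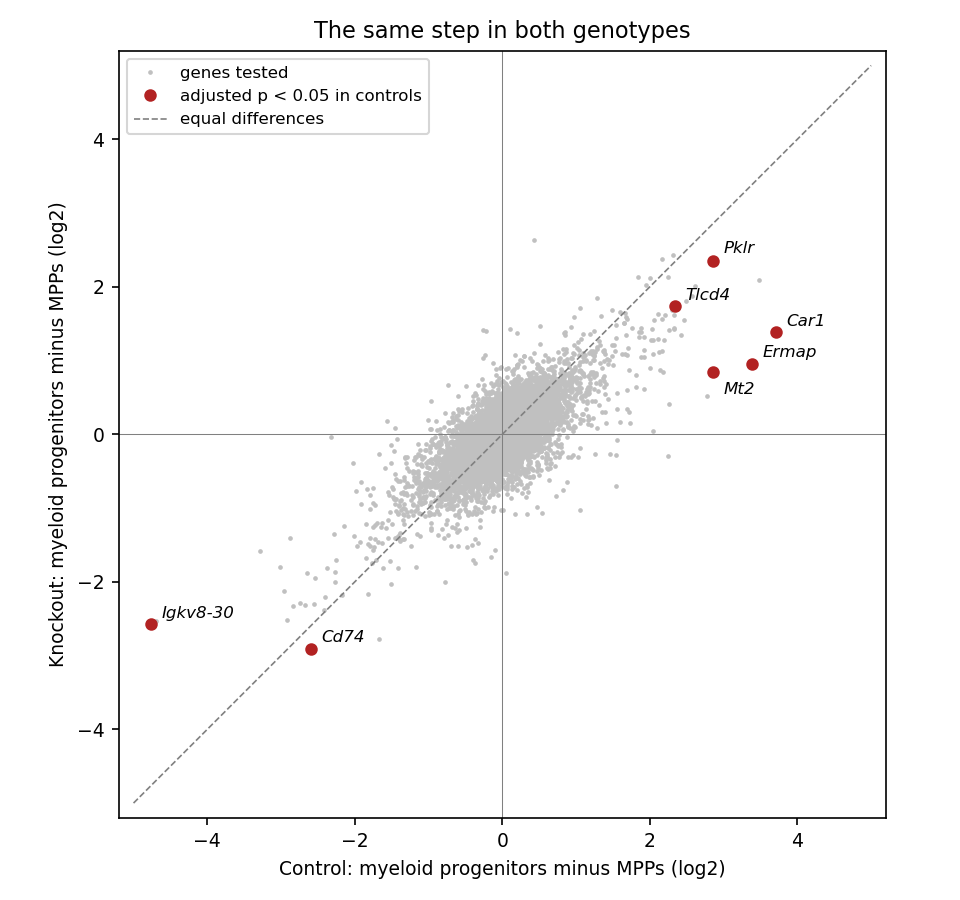
Difference between myeloid progenitors and MPPs in controls (horizontal axis) and in knockouts (vertical axis) for the 8608 genes tested, log2 scale, with the 7 genes that passed in controls in red and the line of equal differences dashed. Pklr and Cd74 lie near the line, while Mt2 (2.85 and 0.85), Ermap (3.38 and 0.96) and Car1 (3.71 and 1.38) lie below it.

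Whether the step differed between genotypes was tested as an interaction, and 0 of 8608 genes passed in limma (0%), with 42 at an unadjusted p under 0.05 (0.488%). Among these, 14 (0.163%) had a higher and 28 (0.325%) a lower value of the difference in knockout cells. The share of 0.488% is far below what the p threshold gives where nothing differs. This fit did not use the littermate pairs, whose arrays deviated together, so its standard errors may be too wide here. With littermate pairs as a random block the count past the threshold was also 0. A count of 0 thus does not show that the step was alike in the genotypes. Erythroid genes held 6 of the 28, namely Car1, Ermap, Epor, Ces2g, Tspan33 and Klf1. Their list median was 0.60 in controls and 0.10 in knockouts. The lower knockout value went with higher MPP levels: relative to the control mean the list stood at 0.26 and 0.09 on the knockout MPP arrays, against -0.54 and -0.47 on the control MPP arrays, while the myeloid progenitor arrays lay at 0.15 to 0.32 in controls and 0.16 to 0.53 in knockouts. Epor read 232 and 133 in knockout MPPs against 31.0 and 35.4 in control MPPs, and its interaction was -1.81 ± 0.60 (unadjusted p = 0.00922). Mt2 had the smallest interaction p of the 7, with -2.00 ± 0.47 (adjusted p = 1.00). Primary granule genes had like medians in both genotypes, 0.45 and 0.51, as had megakaryocyte genes, -0.67 and -0.57.

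**Figure D5:**
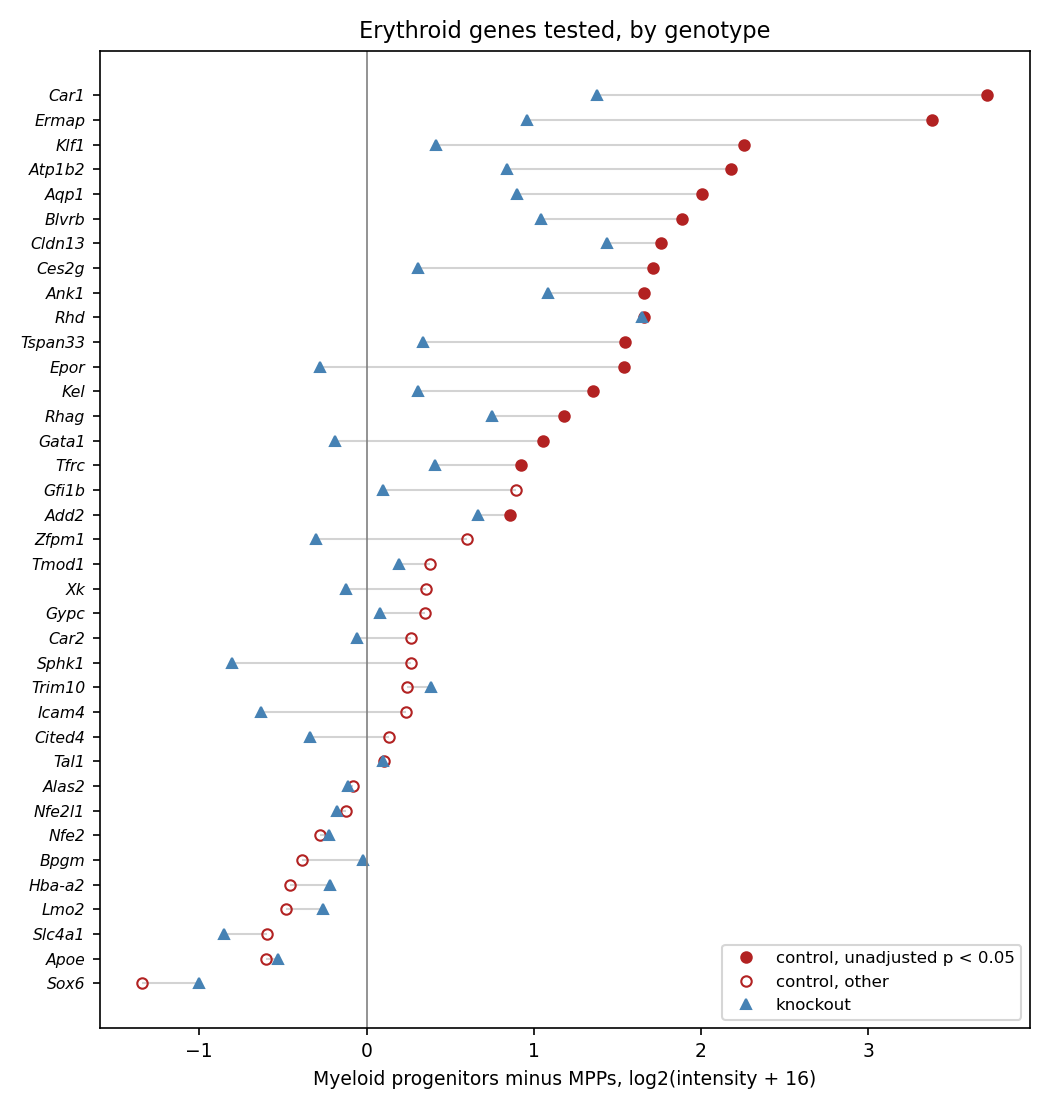
Difference between myeloid progenitors and MPPs for the 37 erythroid genes tested, in controls (circles, filled where the unadjusted p was under 0.05) and in knockouts (triangles), log2(intensity + 16) scale. The filled circles lie to the right of their triangles, as for Car1 (3.71 and 1.38), while Rhd is at 1.66 and 1.65.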

How the data were processed

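RNA of sorted cells was measured on 14 Affymetrix arrays. The authors deposited 1 intensity for each probe set and array, linear as judged by its range. Their summary method and scaling were not given in the sources used here. Arrays state no depth, so the number of arrays limits the precision. A pseudocount of 16 was added before log2, and values were quantile normalised over the 14 arrays after the 64 control probe sets were set aside. Probe sets above an array's 40th percentile in 2 or more of the 14 arrays were kept, and of each gene's probe sets with 1 symbol the brightest was used. Of 22690 probe sets 20380 had 1 symbol, 691 several and 1555 none. The fit was limma 3.58.1 in R 4.3.3 with 6 group means, a mean-variance trend and 8 residual degrees of freedom. Two-sided p-values were adjusted by Benjamini-Hochberg over 8608 genes, with a threshold of 0.05. The procedure was tested on simulated data. Figures used Python 3.11.15 and matplotlib 3.10.9.

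Same-numbered MPP and myeloid progenitor samples were checked for pairing: their deviations from the group means correlated at -0.07 and -0.28 in controls and 0.31 and -0.10 in knockouts, so the numbers were not used to pair populations. Samples of a group are separate pools of mice per the labels. Named genes were all genes past the threshold, the 10 with the smallest p in each direction, sort markers, up to 4 members of each list by p and preset defining markers, with a few others named as chosen after their values were seen or as members of a list or of the count they belong to. Members and the 32 gene lists were chosen with earlier results of these data known, so lists are described by counts and medians with no set test. Promoter sequences came from the RefSeq table (GRCm38.p6), which held 4 of the 7 genes past the threshold. The alternatives comprised other pseudocounts, normalisations, filters, sample sets, weights and blocks, and each of the 10 MPP and myeloid progenitor arrays left out.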

Additional observations from a re-analysis of the deposited data

How the results depend on the processing

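The count of 7 genes was 6 to 7 with a pseudocount of 1, equal medians, no filter, a filter on the 5 arrays, no trend, or no probe sets that may bind several transcripts, and 9 with littermate pairs as a random block, and Pklr did not pass with that block or with a pseudocount of 1. It was 3 with a pseudocount of 64, 34 with only the 10 MPP and myeloid progenitor arrays, 19 with only the 5 control arrays, 95 with array quality weights and 114 with the interferon covariate, which was added after seeing the data. All 7 genes were among these 34, 19, 95 and 114. With the sample number as a replicate block, which does not pair the populations, 3 genes passed. Leaving out 1 array gave 0 to 184 genes, the extremes being MPP control array 1 or myeloid progenitor control array 3 (0) and MPP control array 2 (184). The knockout comparison had 0 genes, and 1 with the 10 arrays, 1 with littermate pairs, 1 with the covariate and 0 to 4 with an array left out (4 without MPP knockout array 2). The interaction had 0 genes, and 0 to 1 with an array left out (1 without MPP knockout array 2). Leaving out 1 array moved Fcrla between -1.18 and 0.22, Klf6 between -1.86 and 0.032, Il7r between -1.05 and 0.37 and Csf3r (main value -0.01) between -0.61 and 0.59, each reversed without MPP control array 1. Spi1 moved between -0.064 and 0.52, reversed without myeloid progenitor control array 2. Csf3r was also at 0.048 with equal medians, 0.25 with the replicate block and 0.25 without myeloid progenitor control array 3, and Itga2b at 0.068 with the covariate. The cause was not tested. No other named gene changed direction in the 23 alternatives; of the list medians, 13 moved by over 1 SD between arrays without MPP control array 1 and 18 without MPP control array 2. With 2 MPP arrays, a difference that rests on 1 of them cannot be told from one between pools of mice.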

Other observations

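Some genes outside the lists, chosen after their values were seen, separated the 5 control arrays without overlap. Prom1, which encodes the surface protein CD133, read 19.4 and 86.8 on the MPP arrays and 422, 1082 and 533 on the myeloid progenitor arrays, a difference of 3.48 ± 0.69 (limma, adjusted p = 0.0768). Gpc1, a heparan sulfate proteoglycan, read 13.9 and 123 against 274, 457 and 367, at 2.62.

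A few further genes were chosen in the same way, each for its higher value in myeloid progenitors, and say nothing of the pathways they belong to. Gsr, glutathione reductase, read 621 and 1138 on the MPP arrays and 1838, 2388 and 2160 on the myeloid progenitor arrays, at 1.32. Pgd, an enzyme of the pentose phosphate pathway, read 586 and 982 against 1354, 1740 and 1692, at 1.03. Gstm1 and Mgst2, which conjugate glutathione, were at 1.26 and 1.49, and Ptgr1, a reductase of lipid products, at 1.24. None of these genes passed the threshold over all genes.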
